A study of Mus musculus with 8 samples.

Results

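The 40 genes described here encode the enzymes of glycolysis, of pyruvate entry into mitochondria and of the pentose phosphate pathway, with 3 hypoxia-linked genes. They were taken by symbol from a table of 23361 genes, 39 under the current symbol and Tigar under its older symbol 9630033F20Rik. The cells were induced regulatory T cells (iTreg), which arise in culture when naive CD4+ T cells are stimulated in the presence of TGF-β and begin to express Foxp3, the transcription factor of regulatory T cells. Both groups came from wild-type mice carrying a red fluorescent reporter of Foxp3 (Foxp3-RFP), whose sorted CD44low CD62Lhigh naive CD4+ T cells were given anti-CD3/CD28 beads, IL-2 at 50 U/ml and TGF-β at 2 ng/ml. The labels give 3 days for this culture and day 5 as the time of the sample, so the age of the cells at the sort is not settled by them. The study's methods name the shorter of these times for the sort and a different IL-2 dose for such cultures. Viable CD4+ Foxp3-RFP+ cells were then sorted into those with surface neuropilin-1, called Nrp-1+ iTreg, and those without it, called Nrp-1- iTreg, and 4 libraries were made per group. Both groups were therefore Foxp3-positive cells from the same kind of culture, and the gate between them was the surface stain for neuropilin-1. The libraries are labelled as biological replicates 1 to 4, and nothing says whether these were separate mice or cultures, so p-values measure the spread between these libraries, which may be partly technical.

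Glycolysis splits glucose into pyruvate through a fixed order of enzymes, and lactate dehydrogenase turns pyruvate into lactate when cells run the pathway fast, as activated T cells do. Pyruvate otherwise enters mitochondria, where the pyruvate dehydrogenase complex makes acetyl-CoA and pyruvate dehydrogenase kinases shut that complex off. The pentose phosphate pathway branches off glucose 6-phosphate and supplies NADPH and ribose. Many glycolytic genes, together with Pdk1, Bnip3, Egln1 and Egln3, are textbook targets of the hypoxia-inducible factor HIF-1, and T cells are known to use HIF-1 also at normal oxygen after stimulation.

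The table held FPKM, fragment numbers scaled to exon length and to all mapped fragments, so a level is per length and can be compared between genes. Of the 23361 genes, 7072 were listed at 0 in all 8 libraries and 10467 had a mean of at least 1 FPKM and were tested, all 40 members among them. Relative depth, read from the step size of low values, lay between 0.992 and 1.22 in Nrp-1+ iTreg and between 0.810 and 1.24 in Nrp-1- iTreg, with replicate 1 of Nrp-1+ iTreg set to 1. The gene of the sort, Nrp1, was at 20.4 to 22 FPKM in Nrp-1+ iTreg against 4.70 to 5.31 in Nrp-1- iTreg (log2 fold change 1.92 ± 0.040 (SE), adjusted p = 1.35e-07, limma). Cd4 at 309 to 319 and 309 to 335 FPKM and Foxp3 at 112 to 120.5 and 107 to 109.9 FPKM marked both groups as Foxp3-expressing CD4+ T cells, and the 6 CD4 T and Treg markers summed to 1070.4 to 1097 FPKM in Nrp-1+ iTreg against 1049 to 1072 in Nrp-1- iTreg. Within that sum Foxp3 (log2 fold change 0.09, adjusted p = 0.0245) and the IL-2 receptor chain Il2ra (0.22, adjusted p = 1.08e-04) were higher in Nrp-1+ iTreg, and the inhibitory receptor Ctla4 (-0.15, adjusted p = 9.38e-04) was lower.

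On the deposited scale most of the glycolytic route was lower in Nrp-1+ iTreg, with 12 of its 17 enzymes called lower, a number that was 5 under quantile normalization. Of the 40 members, 22 were lower, 4 were higher and 14 did not pass an adjusted p of 0.05 (limma on log2(FPKM + 1), Benjamini-Hochberg adjustment over all 10467 genes). Among all tested genes 40.9% passed, 20.0% lower and 20.9% higher, whereas among the members 55.0% were lower and 10.0% were higher. The median log2 fold change of the members, Nrp-1+ over Nrp-1-, was -0.12 against -0.02 for all tested genes, and it ranged from -0.43 for Aldoc to 0.26 for Pdk3. The changes were small, and no member changed 2-fold. In 22 members every Nrp-1+ library was below every Nrp-1- library, and in 4 members every one was above, with 19.3% and 20.2% of all tested genes separated in these directions. Of the 953 tested genes with a mean of at least 100 FPKM, 32.7% were lower and 19.4% higher. Of the 11 members that abundant, 8 were lower and 0 were higher by limma, and 0 were higher at an unadjusted p under 0.05. In these bulk libraries less RNA per cell and fewer cells that make an RNA cannot be told apart.

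The number of higher calls varied with the processing. It was 2 of the members after a correction for GC content and length, 2 under quantile normalization and 2 without replicate 1 of Nrp-1- iTreg, while the number of lower calls lay between 15 and 25 under all alternatives run. A correction for GC content and length moved the split over all tested genes from 2189 higher and 2093 lower to 1838 higher and 2751 lower, and quantile normalization without short RNA genes moved it to 1983 higher and 2901 lower.

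Sums of erythroid, CD8 and myeloid markers differed between the groups too, while those of B cell and NK cell markers overlapped. The 4 erythroid markers summed to 5.50 to 7.59 FPKM in Nrp-1+ iTreg against 2.04 to 3.34 in Nrp-1- iTreg, nearly all of it Hba-a1, a haemoglobin chain (log2 fold change 1.02, adjusted p = 5.10e-04), while Alas2 reached at most 0.0806 FPKM. The 2 CD8 markers summed to 7.10 to 8.78 FPKM in Nrp-1+ iTreg against 9.33 to 11.3 in Nrp-1- iTreg, with Cd8a, the defining chain, at or below 0.111 FPKM in every library and Cd8b1 lower in Nrp-1+ iTreg (log2 fold change -0.31, adjusted p = 0.0119). The 5 myeloid markers summed to 6.46 to 7.22 FPKM in Nrp-1+ iTreg against 5.41 to 6.23 in Nrp-1- iTreg, nearly all of it the integrin Itgam (log2 fold change 0.23, adjusted p = 0.00136), while Csf1r and Cd14 were at 0 in all Nrp-1+ libraries and at most 0.0656 FPKM in the others. The 5 B cell markers summed to 5.21 to 5.91 FPKM in Nrp-1+ iTreg against 4.01 to 5.80 in Nrp-1- iTreg. Nearly all of that sum was Cd79b, at 4.82 to 5.32 and 3.64 to 5.38 FPKM, which did not pass (adjusted p = 0.282, limma). Ms4a1 and Pax5 were at 0 in all 8 libraries, and the 3 NK cell markers reached at most 0.142 FPKM together. The part of these genes in the differences of the members was not tested.

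**Figure D1:**
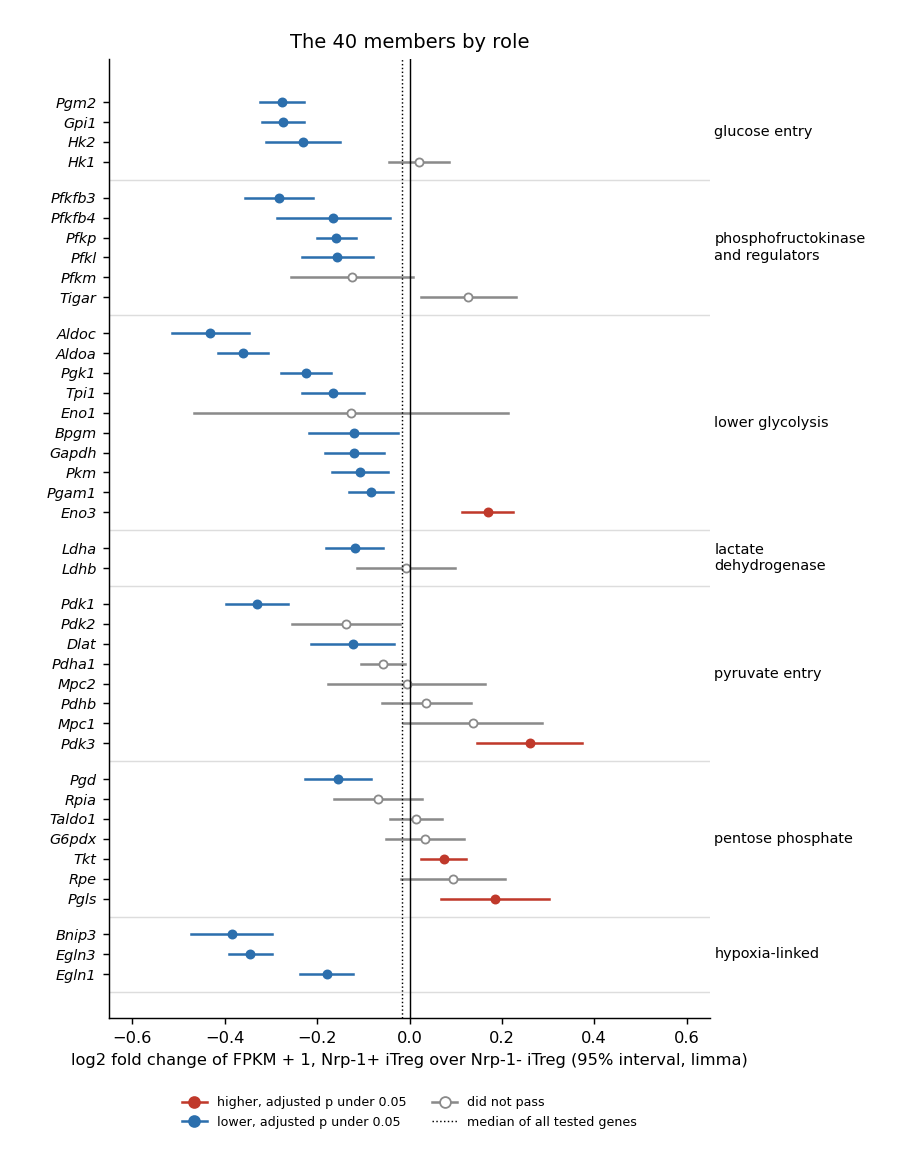
Log2 fold change of FPKM + 1, Nrp-1+ over Nrp-1- iTreg, with the 95% interval from limma for each of the 40 members, grouped by role (filled blue, lower; filled red, higher; open, did not pass an adjusted p of 0.05; dotted line, median of all tested genes). The 22 lower members lie mostly in glycolysis and among the hypoxia-linked genes, and the direction shown for Gapdh turned to 0.01 under quantile normalization.

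The entry of glucose into the pathway was lower at 3 of 4 genes, beside 20.0% of all tested genes. Gpi1, which isomerises glucose 6-phosphate to fructose 6-phosphate, was at 424, 417, 419 and 431 FPKM in replicates 1 to 4 of Nrp-1+ iTreg and at 505, 509, 514 and 516 FPKM in the same order in Nrp-1- iTreg. The groups did not overlap, and the mean fell by 17.3% (log2 fold change -0.27 ± 0.020 (SE), adjusted p = 1.87e-05). Pgm2, a phosphoglucomutase that links glycogen and glycolysis, was at 36.2, 37.5, 35.9 and 36.7 FPKM in Nrp-1+ iTreg against 44.6, 45, 44 and 44.3 in Nrp-1- iTreg. Its values were likewise apart, and the mean fell by 17.8% (log2 fold change -0.28 ± 0.021 (SE), adjusted p = 2.22e-05). The symbols Pgm1 and Pgm2 were exchanged between annotations and the table gives no identifiers, so which phosphoglucomutase the row Pgm2 holds cannot be told here. RefSeq also lists Gpi1 as an older symbol of Pigq, Pdk1 of Pdpk1 and Eno1 of Eno1b. Those rows were read as the current symbols.

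Hexokinases phosphorylate glucose and trap it in the cell, and 1 of the 2 expressed forms passed the test. Hk2, the inducible form, was at 12.3, 12.4, 12.5 and 13.4 FPKM in Nrp-1+ iTreg against 15.4, 15.3, 15 and 14.3 in Nrp-1- iTreg. All 4 Nrp-1+ libraries were below all Nrp-1- libraries, and the mean fell by 15.7% (log2 fold change -0.23 ± 0.035 (SE), adjusted p = 0.00115). Hk1, the form most cells keep on, was at 83.3 ± 1.24 FPKM in Nrp-1+ iTreg against 82.1 ± 2.95 in Nrp-1- iTreg (SD, n = 4), the groups overlapped, and its log2 fold change of 0.02 did not pass (95% interval -0.04 to 0.09, adjusted p = 0.576). Per length, Hk1 was the more abundant form in every library. The ratio of Hk1 to Hk2 FPKM within a library is unaffected by 1 scaling factor per library, although quantile normalization can move it. It was 6.62, 6.82, 6.61 and 6.29 in Nrp-1+ iTreg and 5.23, 5.15, 5.69 and 5.81 in Nrp-1- iTreg. The ranges were apart, with an exact two-sided permutation p = 0.0286, the smallest that 4 against 4 can give, and 0.143 after Benjamini-Hochberg adjustment over the 5 ratios compared, for a difference of 0.27 on the log2 scale. With 5 ratios a single one at that smallest p cannot pass after adjustment unless at least 2 others reach it too, so the adjusted value leaves this difference undecided.

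Phosphofructokinase commits fructose 6-phosphate to glycolysis and is a main point of regulation. Pfkp, its platelet-type isoform and the most abundant here, was at 81.9, 84.1, 83.7 and 84.8 FPKM in Nrp-1+ iTreg against 93.4, 93.4, 92.6 and 94.5 in Nrp-1- iTreg. The groups were well apart for a gene of this level, and the mean fell by 10.5% (log2 fold change -0.16 ± 0.018 (SE), adjusted p = 2.60e-04). Pfkl, the liver-type isoform, was at 49.4, 49.3, 50.1 and 53 FPKM in Nrp-1+ iTreg against 56.3, 53.8, 56.8 and 58.4 in Nrp-1- iTreg. It fell by 10.4% without overlap (log2 fold change -0.16 ± 0.033 (SE), adjusted p = 0.00656). The muscle-type isoform Pfkm, at 11 ± 0.896 FPKM in Nrp-1+ iTreg against 12.1 ± 0.528 in Nrp-1- iTreg, overlapped between the groups and did not pass (log2 fold change -0.12, adjusted p = 0.122), although it did after the correction for GC content and length (adjusted p = 0.0289). The ratio of Pfkl to Pfkp was 0.603 ± 0.0165 and 0.603 ± 0.0191 (SD, n = 4), with a difference of 0.00 on the log2 scale (exact permutation p = 0.971).

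The regulators of phosphofructokinase set the level of fructose 2,6-bisphosphate, its strongest activator. Pfkfb3, the form that mainly makes this activator, was at 15.2, 14.4, 15.3 and 15.9 FPKM in Nrp-1+ iTreg against 19.3, 18.5, 18.3 and 18.6 in Nrp-1- iTreg. No Nrp-1+ library reached the lowest Nrp-1- library, and the mean fell by 18.7% (log2 fold change -0.28 ± 0.032 (SE), adjusted p = 2.33e-04). Pfkfb4 was the member of lowest level, at 2.01, 1.80, 1.89 and 1.99 FPKM in Nrp-1+ iTreg against 2.39, 2.39, 2.17 and 2.15 in Nrp-1- iTreg. The groups did not overlap, and the mean fell by 15.5% (log2 fold change -0.16 ± 0.054 (SE), adjusted p = 0.0390). That call was lost without any 1 of the 4 Nrp-1+ libraries and without replicate 1 or 2 of Nrp-1- iTreg (adjusted p from 0.0469 to 0.0964 over the 8 libraries left out in turn). Tigar, which degrades the same activator and so diverts glucose to the pentose phosphate pathway, was at 4.47 ± 0.258 FPKM in Nrp-1+ iTreg against 4.00 ± 0.112 in Nrp-1- iTreg. Its groups did not overlap, with the higher values in Nrp-1+ iTreg, but it narrowly missed the threshold (log2 fold change 0.13, adjusted p = 0.0514) and passed without replicate 2 of Nrp-1+ iTreg (adjusted p = 0.0293).

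**Figure D2:**
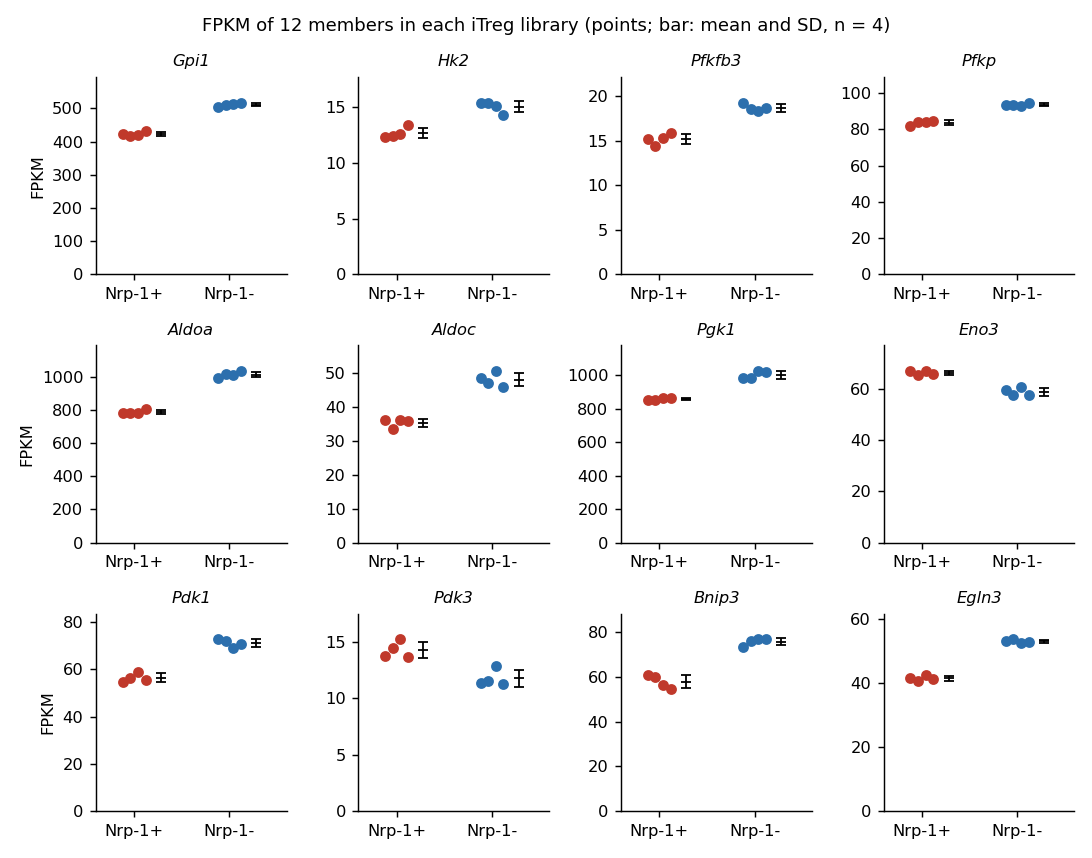
FPKM of 12 members in each of the 4 Nrp-1+ (red) and 4 Nrp-1- (blue) iTreg libraries, with the mean and SD beside the points and every axis starting at 0. In all 12 the groups do not overlap, with Eno3 and Pdk3 higher and the other 10 lower in Nrp-1+ iTreg.

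The enzymes from aldolase to pyruvate kinase held the largest fall, that of Aldoc, and the highest levels. The 10 genes of this stretch summed to 5008 to 5152 FPKM in Nrp-1+ iTreg against 5569 to 5925 in Nrp-1- iTreg, a change of -11.6% in the mean, with 8 genes lower and 1 higher (80.0% and 10.0%, beside 20.0% and 20.9% of all tested genes). Under quantile normalization Aldoc was the 1 gene of the 10 called lower, and with short RNA genes left out of that normalization 5 were. Aldolase cuts fructose 1,6-bisphosphate into 2 trioses. Aldoc, the brain-type form, was at 36.1, 33.6, 36 and 35.7 FPKM in Nrp-1+ iTreg against 48.6, 47, 50.5 and 46 in Nrp-1- iTreg. It fell by 26.4%, the largest change of all members, with no overlap (log2 fold change -0.43 ± 0.036 (SE), adjusted p = 4.10e-05). Aldoa, the main form, was at 784, 781, 785 and 807 FPKM in Nrp-1+ iTreg against 991, 1018, 1011 and 1034 in Nrp-1- iTreg. The gap between the groups was larger than the spread within either, and the mean fell by 22.1% (log2 fold change -0.36 ± 0.023 (SE), adjusted p = 8.52e-06). The ratio of Aldoc to Aldoa was 0.0448 ± 0.00147 in Nrp-1+ iTreg and 0.0474 ± 0.00253 in Nrp-1- iTreg and overlapped (exact permutation p = 0.114, adjusted p = 0.238 over the 5 ratios), so a difference between the falls of the forms was not shown.

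Below aldolase the falls were smaller. Pgk1, which makes the first ATP of the payoff phase, was at 854, 850.3, 860.4 and 862 FPKM in Nrp-1+ iTreg against 979.9, 982, 1024 and 1019 in Nrp-1- iTreg. The mean fell by 14.4% with no overlap (log2 fold change -0.22 ± 0.024 (SE), adjusted p = 1.59e-04). Tpi1, which interconverts the trioses, averaged 380.3 ± 5.62 FPKM in Nrp-1+ iTreg against 427 ± 15.7 in Nrp-1- iTreg (SD, n = 4) and fell by 10.9% (log2 fold change -0.17, adjusted p = 0.00266). Gapdh, the glyceraldehyde 3-phosphate dehydrogenase and the most abundant member, was at 1251, 1236, 1259 and 1283 FPKM in Nrp-1+ iTreg against 1310.1, 1377, 1389 and 1390.0 in Nrp-1- iTreg. Its groups did not overlap and its mean fell by 7.99% on the deposited scale, with the direction turning to 0.01 under quantile normalization (log2 fold change -0.12 ± 0.028 (SE), adjusted p = 0.00983). Pkm, pyruvate kinase, was at 980.4, 970.5, 985 and 1026 FPKM in Nrp-1+ iTreg against 1061, 1042, 1080.0 and 1086 in Nrp-1- iTreg. It fell by 7.18% on the deposited scale, the lowest Nrp-1- library lying just above the highest Nrp-1+ library (log2 fold change -0.11 ± 0.027 (SE), adjusted p = 0.0130). Pgam1, a phosphoglycerate mutase, averaged 216 and 229 FPKM and fell by 5.70% (log2 fold change -0.08, adjusted p = 0.0127).

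The calls of the most abundant enzymes depended on whether the libraries were quantile normalized. With median-of-ratios size factors, which rescale each library by 1 factor, 12 of the 17 enzymes of the glycolytic route stayed lower. Under quantile normalization Aldoa, Tpi1, Gapdh, Pgk1, Pgam1, Pkm and Ldha lost their call, although the log2 fold changes of Aldoa (-0.36) and Tpi1 (-0.17) hardly moved. Those of Pkm and Ldha shrank to -0.04 each, and that of Pgam1 to -0.05. With 780 short RNA genes left out of that normalization, an alternative chosen after seeing the data, Aldoa, Tpi1 and Pgk1 passed again, while Gapdh (adjusted p = 0.325), Pgam1 (0.0530), Pkm (0.359) and Ldha (0.523) did not, the log2 fold changes of Pkm and Ldha then being -0.04 and -0.03.

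Eno3, Eno1 and Bpgm stood apart from the rest of this stretch. Eno3, an enolase best known from muscle, was at 66.8, 65.3, 66.8 and 65.8 FPKM in Nrp-1+ iTreg against 59.3, 57.4, 60.8 and 57.4 in Nrp-1- iTreg. It rose by 12.6% without overlap (log2 fold change 0.17 ± 0.024 (SE), adjusted p = 8.11e-04), and after the correction for GC content and length the value was 0.12 and the call was lost (adjusted p = 0.0746). Eno1, the main enolase, was at 573, 474, 428 and 397 FPKM in Nrp-1+ iTreg against 472, 409, 563 and 604 in Nrp-1- iTreg. Its libraries scattered from 397 to 604 FPKM across both groups, the largest coefficient of variation of the members at 16.5% and 17.2% against medians of 3.43% and 2.90%. No difference was detectable at that spread (95% interval -0.47 to 0.21, adjusted p = 0.525). The near-identical copy Eno1b, listed as Gm5506, was at 1.70 to 2.65 FPKM, and the sum of both rows scattered as widely, from 399 to 606 FPKM. Bpgm, which makes 2,3-bisphosphoglycerate, averaged 10.0 and 11 FPKM, with overlapping groups and a call at the edge of the threshold (log2 fold change -0.12, adjusted p = 0.0490). That call was lost under 11 of the 20 alternatives, among them without replicates 1, 2 or 3 of Nrp-1+ iTreg and without replicates 2, 3 or 4 of Nrp-1- iTreg (adjusted p from 0.0362 to 0.114 over the 8 libraries left out in turn).

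Lactate dehydrogenase closes the fermenting route. Ldha, which favours the making of lactate, was at 892, 885, 909.5 and 937 FPKM in Nrp-1+ iTreg against 959.9, 985, 982 and 1006 in Nrp-1- iTreg. The groups lay close but did not overlap, and the mean fell by 7.87% on the deposited scale (log2 fold change -0.12 ± 0.027 (SE), adjusted p = 0.00865). Ldhb, which favours the reverse reaction, was far lower per length, at 31 ± 1.21 FPKM in Nrp-1+ iTreg against 31.2 ± 1.89 in Nrp-1- iTreg (SD, n = 4). It overlapped and did not pass (95% interval of the log2 fold change -0.11 to 0.10, adjusted p = 0.914). The ratio of Ldhb to Ldha was 0.0343 ± 0.00185 in Nrp-1+ iTreg and 0.0317 ± 0.00197 in Nrp-1- iTreg (exact permutation p = 0.143, adjusted p = 0.238 over the 5 ratios), and the log2 difference of 0.11 was 0.02 under quantile normalization. Summed from hexokinase to lactate dehydrogenase, the 17 enzymes of this route stood at 6572 to 6727 FPKM in Nrp-1+ iTreg against 7314 to 7732 in Nrp-1- iTreg, a change of -11.3% in the mean, and at -11.5% without Eno1. Of these 17 genes, 12 were lower and 1 was higher, that is 70.6% and 5.88% beside 20.0% and 20.9% of all tested genes. Under quantile normalization 5 of the 17 were lower (29.4%), and 9 were with short RNA genes left out of it.

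**Figure D3:**
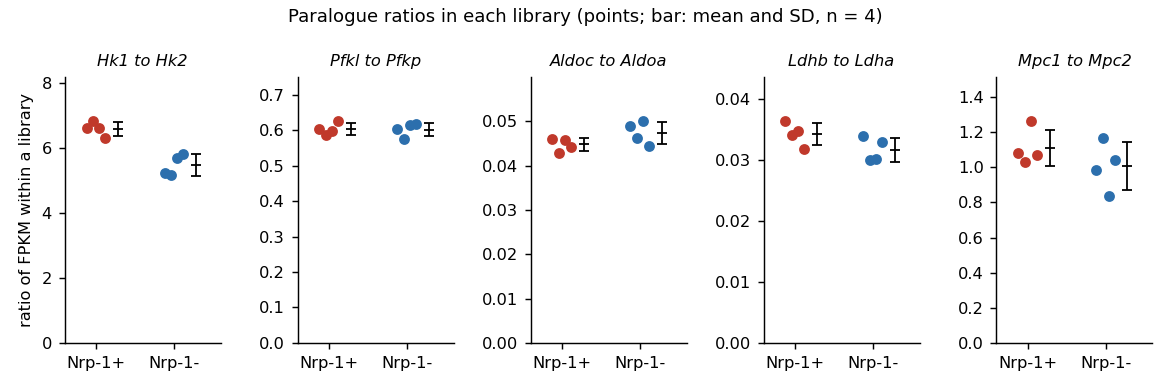
Ratio of the FPKM of 2 related genes within each library, in 4 Nrp-1+ (red) and 4 Nrp-1- (blue) iTreg libraries, with mean and SD and each axis starting at 0. The Hk1 to Hk2 ratio lies between 6.29 and 6.82 in Nrp-1+ iTreg and between 5.15 and 5.81 in Nrp-1- iTreg, while the other 4 ratios overlap.

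At the entry of pyruvate into mitochondria Pdk1 was lower and Pdk3 higher, and of the 3 member genes of the complex Dlat was lower while Pdha1 and Pdhb did not pass. Pdhx and Dld, complex genes outside the members, were named after their values were seen. Pdhx was higher with overlapping groups (log2 fold change 0.20, adjusted p = 0.0441, limma), and Dld did not pass (0.04, adjusted p = 0.211). Pdk1, a pyruvate dehydrogenase kinase and known HIF-1 target, was at 54.8, 56.2, 59.1 and 55.6 FPKM in Nrp-1+ iTreg against 72.8, 72.1, 69.1 and 70.6 in Nrp-1- iTreg. Its mean fell by 20.7% without overlap (log2 fold change -0.33 ± 0.029 (SE), adjusted p = 5.32e-05). Pdk3, another of these kinases, was at 13.7, 14.5, 15.2 and 13.7 FPKM in Nrp-1+ iTreg against 11.4, 11.6, 12.9 and 11.3 in Nrp-1- iTreg. It rose by 21.4%, the largest rise of all members, and although replicate 3 of Nrp-1- iTreg came close to the lowest Nrp-1+ libraries the groups stayed apart (log2 fold change 0.26 ± 0.049 (SE), adjusted p = 0.00368). Pdk2 averaged 7.69 and 8.55 FPKM with overlap and did not pass (log2 fold change -0.14, adjusted p = 0.0592), but it passed as lower under 6 of the 20 alternatives. Together the 3 kinases stood at 75.9 to 81.5 FPKM in Nrp-1+ iTreg against 90.2 to 93 in Nrp-1- iTreg, a change of -14.3% in the mean, the fall of Pdk1 being partly offset by the rise of Pdk3.

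Dlat, the acetyltransferase core of pyruvate dehydrogenase, was at 10.5, 10.7, 10.6 and 10.4 FPKM in Nrp-1+ iTreg against 12.1, 11.6, 12 and 10.7 in Nrp-1- iTreg. It fell by 8.94% and passed narrowly (log2 fold change -0.12 ± 0.039 (SE), adjusted p = 0.0364). Replicate 4 of Nrp-1- iTreg lay next to the Nrp-1+ libraries. The call was lost without any 1 of the other 7 libraries and was at its firmest without that one (adjusted p from 0.00456 to 0.0897 over the 8 libraries left out in turn). Of the E1 subunits, Pdha1 at 104 ± 1.72 FPKM in Nrp-1+ iTreg against 109 ± 1.90 in Nrp-1- iTreg did not overlap but missed the threshold (log2 fold change -0.06, adjusted p = 0.0577), while it passed after the correction for GC content and length (-0.10, adjusted p = 0.0201) and under quantile normalization without short RNA genes (-0.08, adjusted p = 0.0164). Pdhb averaged 62.9 and 61.3 FPKM with overlap (adjusted p = 0.511). The mitochondrial pyruvate carrier subunits Mpc1, at 47.1 to 57.4 and 43.7 to 50.7 FPKM, and Mpc2, at 44 to 50.1 and 43.3 to 54.4 FPKM, overlapped and did not pass (adjusted p = 0.132 and 0.958). Their ratio was 1.11 ± 0.103 and 1.01 ± 0.138 and overlapped as well (exact permutation p = 0.314, adjusted p = 0.393 over the 5 ratios).

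Of the 7 pentose phosphate genes, 1 was lower, 2 were higher and 4 did not pass. These shares, 14.3% lower and 28.6% higher, lie near the 20.0% and 20.9% of all tested genes, and neither of the higher genes passed under quantile normalization or without replicate 1 of Nrp-1- iTreg. Their sum was 457 to 477 FPKM in Nrp-1+ iTreg against 438 to 457 in Nrp-1- iTreg, a change of 3.67% in the mean. G6pdx, glucose 6-phosphate dehydrogenase, which opens the pathway, was at 21, 19.6, 19.3 and 19 FPKM in Nrp-1+ iTreg against 19.4, 20.0, 18.5 and 19 in Nrp-1- iTreg. The groups overlapped and no difference was detectable (95% interval of the log2 fold change -0.05 to 0.12, adjusted p = 0.503). Pgls, the next enzyme, was at 104, 99, 100.2 and 111 FPKM in Nrp-1+ iTreg against 86.6, 99.1, 88.5 and 90.1 in Nrp-1- iTreg. It rose by 13.8%, with replicate 2 of Nrp-1- iTreg among the Nrp-1+ values (log2 fold change 0.18 ± 0.051 (SE), adjusted p = 0.0206). Without replicate 1 or replicate 3 of Nrp-1- iTreg its adjusted p was 0.0517 and 0.0544, and it was 0.0573 under quantile normalization.

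Pgd, the second NADPH-making enzyme of the oxidative branch, was at 34, 31.2, 33.7 and 34 FPKM in Nrp-1+ iTreg against 37.4, 36.9, 36.4 and 37.5 in Nrp-1- iTreg. It went the other way and fell by 10.4% without overlap (log2 fold change -0.16 ± 0.031 (SE), adjusted p = 0.00464). Tkt, transketolase, which carries carbon back to glycolysis, was at 101, 99.3, 99.2 and 103 FPKM in Nrp-1+ iTreg against 94.6, 94.6, 96.4 and 97.1 in Nrp-1- iTreg. The rise of 5.32% was the smallest change of the called members (log2 fold change 0.07 ± 0.021 (SE), adjusted p = 0.0224) and was lost without replicate 1 of Nrp-1+ iTreg (adjusted p = 0.0532) and without replicate 1 or 2 of Nrp-1- iTreg (0.0521 and 0.0569). After the correction for GC content and length the adjusted p of Tkt was 0.224, and under quantile normalization 0.383. Taldo1, Rpia and Rpe of the non-oxidative branch averaged 158 and 156 FPKM, 23.4 and 24.5 FPKM and 27.5 and 25.7 FPKM, each with overlap (adjusted p = 0.663, 0.220 and 0.163).

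The hypoxia-linked members were all lower, 3 of 3, beside 20.0% of all tested genes. Bnip3, a mitochondrial protein of mitophagy and cell death, was at 61, 59.9, 56.2 and 54.4 FPKM in Nrp-1+ iTreg against 73.4, 76.2, 76.8 and 76.8 in Nrp-1- iTreg. It fell by 23.7%, with a wide gap between the groups (log2 fold change -0.38 ± 0.038 (SE), adjusted p = 1.09e-04). Egln3, a prolyl hydroxylase that marks HIF-1α for decay and is itself induced by it, was at 41.7, 40.8, 42.7 and 41.4 FPKM in Nrp-1+ iTreg against 53.3, 53.8, 52.6 and 52.9 in Nrp-1- iTreg. The replicates were close and the mean fell by 21.6% (log2 fold change -0.34 ± 0.020 (SE), adjusted p = 5.06e-06). Egln1, the main enzyme of that family, was at 69.4, 69.8, 66.8 and 66.2 FPKM in Nrp-1+ iTreg against 78.7, 75.8, 78.2 and 76.1 in Nrp-1- iTreg. It fell by 11.8% without overlap (log2 fold change -0.18 ± 0.025 (SE), adjusted p = 7.59e-04). These calls held without any 1 of the 8 libraries, and 21 of the 26 called members held in that way.

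The promoters of the members were searched on both strands for letters that the choice of the genes had not read directly. That choice took in hypoxia-linked genes, so the shares with hypoxia response element letters are not independent of it. RefSeq windows of build GRCm38.p6, from 250 bases before to 50 after the start, were at hand for 39 members with 55 windows, Pgm2 being left out for its exchanged symbol. The core letters of the hypoxia response element are ACGTG and GCGTG. One or the other was in 74.5% of the member windows (95% exact binomial interval 61.0 to 85.3), in 63.8% of the 9784 windows of tested genes and in 43.8% of all 32849 windows. In the 250 bases before the start alone these shares were 74.5% (interval 61.0 to 85.3), 57.9% and 38.6%. ACGTG alone was in 38.2% of member windows (interval 25.4 to 52.3) and in 26.7% of those of tested genes. The letters CACGTG of the E-box, which contain ACGTG on both strands, were in 9.09% against 10.6%, and TGACNNNGC, letters of the antioxidant response element, in 10.9% against 14.7%. Windows of one gene can overlap, and the intervals cover counting error alone. Either core was in 72.4% of the 29 windows of lower members, in 72.7% of the 22 windows of members that did not pass and in 4 of the 4 windows of higher members. ACGTG alone was in 48.3% of the windows of lower members (interval 29.4 to 67.5), in 27.3% of those that did not pass (10.7 to 50.2) and in 1 of the 4 of higher members, with wide intervals that overlap.

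The 250 bases before the start are shown for 4 members, Bnip3, Pgk1 and Ldha, which were lower, and Pdk3, which was higher, chosen after their matches were seen so that both directions could be read side by side. Capitals mark ACGTG or GCGTG on either strand, a match on the opposite strand being read here as its reverse complement (CACGT or CACGC), and runs of 6 capitals are the E-box letters. The Bnip3 window is chr7:138909507-138909756 on the minus strand, that of Pgk1 is chrX:106186850-106187099 on the plus strand, that of Ldha, before the first of its 2 listed starts, is chr7:46845554-46845803 on the plus strand, and that of Pdk3 is chrX:93832151-93832400 on the minus strand.
Bnip3: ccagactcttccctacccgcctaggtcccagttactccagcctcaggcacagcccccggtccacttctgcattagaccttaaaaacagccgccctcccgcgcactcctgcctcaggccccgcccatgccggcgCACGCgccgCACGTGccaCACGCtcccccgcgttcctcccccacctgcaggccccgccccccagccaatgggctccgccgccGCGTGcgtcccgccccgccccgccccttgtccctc
Pgk1: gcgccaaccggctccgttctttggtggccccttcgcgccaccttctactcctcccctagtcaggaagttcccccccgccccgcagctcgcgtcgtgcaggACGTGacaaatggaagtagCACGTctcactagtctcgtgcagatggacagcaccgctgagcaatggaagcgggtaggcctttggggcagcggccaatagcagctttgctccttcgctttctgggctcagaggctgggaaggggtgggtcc
Ldha: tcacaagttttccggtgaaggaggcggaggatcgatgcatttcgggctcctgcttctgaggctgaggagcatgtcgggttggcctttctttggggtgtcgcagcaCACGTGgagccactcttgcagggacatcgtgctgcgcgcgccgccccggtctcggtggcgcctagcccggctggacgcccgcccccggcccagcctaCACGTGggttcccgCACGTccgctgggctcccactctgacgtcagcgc
Pdk3: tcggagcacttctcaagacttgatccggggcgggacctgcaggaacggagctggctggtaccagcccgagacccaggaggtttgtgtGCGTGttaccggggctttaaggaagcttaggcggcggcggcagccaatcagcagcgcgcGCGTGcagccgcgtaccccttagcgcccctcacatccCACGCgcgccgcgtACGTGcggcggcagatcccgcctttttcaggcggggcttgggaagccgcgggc
Bnip3 held 5 matches between 117 and 35 bases before the start, Pgk1 held 2 at 150 and 131 bases, Ldha held 5 between 145 and 34 bases, and Pdk3 held 4 between 163 and 53 bases. An E-box was counted once on each strand, so its 1 marked run in Bnip3 and its 2 in Ldha are fewer than their matches. The lower genes and the higher gene both carried these letters close to the start. A match is a run of letters and not a measured binding site.

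Genes of the neighbouring pathways that are not members were read from the same fit. Of 20 tested genes of the hypoxia response, 10 were lower and 0 were higher by limma, 1 being higher at an unadjusted p under 0.05, with a median log2 fold change of -0.13. The share of 50.0% lower stands beside 20.0% of all tested genes. The largest falls were those of Ankrd37, an ankyrin-repeat protein, at 50.5 to 56.4 and 65.6 to 80.8 FPKM (log2 fold change -0.44, adjusted p = 0.00103), of Ak4, a mitochondrial adenylate kinase, at 4.68 to 5.07 and 6.24 to 6.88 FPKM (log2 fold change -0.38, adjusted p = 1.39e-04), and of Kdm3a, a histone demethylase, at 37.8 to 41.3 and 47.2 to 51.1 FPKM (log2 fold change -0.30, adjusted p = 2.30e-04). The mRNA of Hif1a itself overlapped at 58.5 to 65.9 and 64 to 69.1 FPKM and did not pass (log2 fold change -0.06, adjusted p = 0.257), a gene named after its values were seen.

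Of 9 tested transport genes, 4 were lower and 2 were higher, shares of 44.4% and 22.2% beside 20.0% and 20.9% of all tested genes. Slc2a3, a high-affinity glucose carrier, was lower, at 50.0 to 53.5 FPKM in Nrp-1+ iTreg against 71 to 76 in Nrp-1- iTreg (log2 fold change -0.50 ± 0.035 (SE), adjusted p = 1.54e-05). The carriers Slc2a6, at 2.57 to 3.23 against 1.30 to 1.61 FPKM (log2 fold change 0.63, adjusted p = 3.22e-04), and Slc2a8, at 3.50 to 4.33 against 2.79 to 3.46 FPKM (log2 fold change 0.33, adjusted p = 0.00901), rose from low levels. Slc2a1, the basal glucose carrier of most cells and named after its values were seen, was also lower, at 63.6 to 68.3 against 72.7 to 79.5 FPKM (log2 fold change -0.23, adjusted p = 0.00105).

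Of 22 tested enzymes of glycolysis, pyruvate metabolism and the pentose phosphate pathway outside the members, 8 were higher, 2 were lower and 12 did not pass, with a median of 0.04. The number of higher genes was 5 with the GC content and length correction, under quantile normalization, and without replicate 1 or 4 of Nrp-1+ iTreg or replicate 1 or 2 of Nrp-1- iTreg. The largest rises were those of Pcx, pyruvate carboxylase, at 12.1, 12.5, 12.9 and 14.2 FPKM in Nrp-1+ iTreg against 7.36, 7.26, 7.96 and 7.36 in Nrp-1- iTreg (log2 fold change 0.71 ± 0.051 (SE), adjusted p = 1.61e-05), of Pck2, the mitochondrial phosphoenolpyruvate carboxykinase, at 29.3 to 32.8 against 21.2 to 24.3 FPKM (log2 fold change 0.42, adjusted p = 2.66e-04), and of Pdp1, a phosphatase that switches pyruvate dehydrogenase on, at 3.18 to 3.65 against 2.53 to 2.90 FPKM (log2 fold change 0.25, adjusted p = 0.00741). Of 21 tested genes of the tricarboxylic acid cycle, 6 were higher, 1 was lower and 14 did not pass, with a median of -0.0047, and after the GC content and length correction 4 were higher and 5 were lower. Fh1, fumarase (log2 fold change 0.21, adjusted p = 0.00581), and Mdh1, the cytosolic malate dehydrogenase (log2 fold change 0.18, adjusted p = 2.71e-04), were among the higher genes. These shares, 36.4% and 28.6% higher, stand beside 20.9% for all tested genes, and the lists were not compared with each other by a test.

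**Figure D4:**
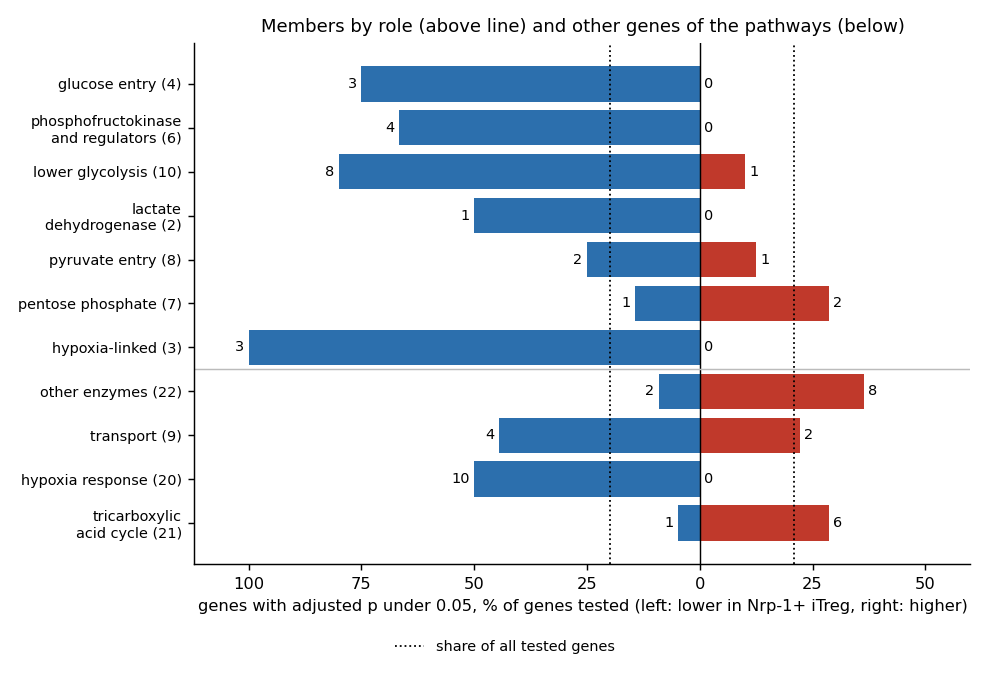
Share of tested genes lower (blue, left) or higher (red, right) in Nrp-1+ iTreg at an adjusted p under 0.05, by role of the members (above the grey line) and in 4 lists of other genes (below), with the number of genes tested in brackets, the number called beside each bar and dotted lines at 20.0% lower and 20.9% higher for all tested genes. Glycolysis, the hypoxia-linked members and the hypoxia response list lie to the left, and the count for lower glycolysis includes Gapdh, whose direction turned under quantile normalization.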

How the data were processed

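RNA-seq libraries of 4 Nrp-1+ and 4 Nrp-1- iTreg samples were grouped by their labels. Per the study's methods, the authors used CLC Genomics Workbench (version 11.0.1) for the reads and Cufflinks for the FPKM values that they deposited, 1 for each symbol in each library. The labels name build GRCm38 (mm10). Aligner settings, annotation and any scaling beyond FPKM are not given in the sources used here, and the labels and the methods name different library kits. FPKM is no count, so no count model was used, and depth is known in relative terms only.

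The deposited values entered the tests unaltered. Tested were genes averaging at least 1 FPKM over the 8 libraries, on log2(FPKM + 1), a scale that understates changes of low genes. The test was limma 3.58.1 (lmFit, eBayes with intensity trend, R 4.3.3), adjusted after Benjamini and Hochberg over 10467 genes, with 95% intervals. Ratios within a library were tested by exact two-sided permutation (scipy 1.17.1, Python 3.11.15, numpy 2.4.6, pandas 2.3.3; plots with matplotlib 3.10.9). The fit was checked on simulated data first.

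The members and gene lists were chosen with earlier results of these data known, so no set test was run and no p was adjusted over a list alone. Values in every library are given for up to 4 called members of largest change per role and for Hk2, Pfkfb3, Gapdh, Pkm, Ldha, Pdk1 and G6pdx. In each other list up to 3 called genes of largest change with separate groups are named, except where a gene is not reported here. The alternatives changed the pseudocount (0.1 or 0.5), the filter (none, or 5 FPKM on average), the scaling (median-of-ratios or quantile), the variance model (array weights, or eBayes with no trend), added a GC content and length correction (GENCODE M21, matched for 99.4% of tested genes) or a block for the replicate number, or left out each library in turn. A quantile normalization leaving out 780 short RNA symbols (268 of them tested) was chosen after seeing the data. Promoter windows and older symbols come from RefSeq, GRCm38.p6.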

Additional observations from a re-analysis of the deposited data

Results flagged for a closer look

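In 9 of 104 groups of 4 libraries, 1 library stood far from the other 3 by Dixon's test, where chance alone gives about 5.2. Among the members these were Aldoa in replicate 4 of Nrp-1+ iTreg (807.29 FPKM, the others 781.43 to 784.54), Aldoc in replicate 2 of Nrp-1+ iTreg (33.577 FPKM, the others 35.736 to 36.14), Tpi1 in replicate 2 of Nrp-1+ iTreg (371.93 FPKM, the others 382.32 to 383.77), Pgd in replicate 2 of Nrp-1+ iTreg (31.177 FPKM, the others 33.665 to 33.961), Gapdh in replicate 1 of Nrp-1- iTreg (1310.1 FPKM, the others 1377.4 to 1390.0), Mpc2 in replicate 3 of Nrp-1- iTreg (54.414 FPKM, the others 43.342 to 44.865) and Pdk3 in replicate 3 of Nrp-1- iTreg (12.853 FPKM, the others 11.316 to 11.564). Outside the members they were Pcx (7.9631 FPKM, the others 7.2594 to 7.3586) and Slc2a8 (3.4554 FPKM, the others 2.7889 to 2.8687), both in replicate 3 of Nrp-1- iTreg. Of these genes only Mpc2 changed its direction when the library was left out, and it passed the test in neither case. The calls of Aldoa, Aldoc, Tpi1, Gapdh, Pgd, Pdk3, Pcx and Slc2a8 held without any 1 library.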

How the results depend on the processing

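Of the 26 called members, 13 kept their call under all 20 alternatives, 21 kept it without any 1 library, and Gapdh alone changed direction in one (0.0126 under quantile normalization, adjusted p = 0.970). Pgm2, among these 13, had no GC content or length assigned for its exchanged symbol. The GC content and length correction therefore left its log2 fold change as it was. The 22 lower members numbered 15 to 25 and the 4 higher members 1 to 5. The higher count was 2 with the GC content and length correction and 2 under quantile normalization, and from 2 (without replicate 1 of Nrp-1- iTreg) to 5 (without replicate 2 of Nrp-1+ iTreg) with a library left out. Same-numbered libraries did not deviate together (correlations of -0.54, -0.02, 0.01 and -0.50), so the numbers were not taken as pairs. With the replicate block 19 members were lower and 2 higher, with Pfkfb4, Bpgm, Dlat, Pgls and Tkt losing their call, and 1 was higher with the replicate block and the GC content and length correction together. The Hk1 to Hk2 difference of 0.2684 had p = 0.125 in the paired permutation, the smallest that 4 pairs allow, so that test says nothing on its stability.

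Members that passed in no fit named here changed sign near 0. With the GC content and length correction, with or without the replicate block, Hk1 was at -0.0131, Pdhb at -0.0068 and Taldo1 at -0.0302. Ldhb was at 0.0013 with array weights and from -0.0318 to 0.0206 with a library left out, Mpc2 at 0.0001 with size factors and from -0.0429 to 0.0675, and Taldo1 from -0.0019 to 0.0328. The log2 difference in the ratio of Pfkl to Pfkp was -0.0010 under quantile normalization and from -0.0201 to 0.0158 with a library left out. The cause was not tested. Depth is known in relative terms only, so no counting interval stands behind single values.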
